A study of Mus musculus with 6 samples.

Results

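The circadian clock genes described here were a set of 10 named genes, listed by symbol with earlier results of these data known. They were Arntl, Clock, Per1, Per2, Cry1, Nr1d1, Nr1d2, Dbp, Tef and Bhlhe40. Of these, 7 had a row among the 10189 genes of the table: the activators Clock and Arntl, the repressors Nr1d1, Nr1d2 and Bhlhe40, and the output factors Dbp and Tef. Per1, Per2 and Cry1 had no row and were not analysed here. Clock was lower and Nr1d2 higher in every miR-34a KO library than in every wild-type library, and neither passed the test adjusted over all genes. The other 5 members overlapped between the genotypes. Over all genes, all KO libraries lay above all wild-type libraries for 8.82% and below them for 9.57%.

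RNA was sequenced from primary chondrocytes, the matrix-making cells of cartilage, in 3 miR-34a KO and 3 wild-type (WT) samples. KO cells (genotype MiR-34a -/-) came from mice lacking both copies of Mir34a in all tissues, bred from heterozygous parents, and WT cells from mice with the normal gene. All mice were C57BL/6 and 5 weeks old, and the labels give the model name Mir34atm1.2 Mrl to samples of both genotypes. Cartilage of knee and hip joints was pooled, digested with collagenase and the cells grown in serum-containing medium with no treatment. The sources used here give neither the hour of RNA extraction nor any step that would set the cultures to a common clock time. The labels do not say whether samples of 1 genotype came from separate animals, so the p-values below cover the variation seen among these libraries and it may be technical.

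As background, the mammalian clock is a feedback loop of transcription. CLOCK and BMAL1, the product of Arntl, bind E-boxes together and switch on the Per, Cry, Nr1d1, Nr1d2, Dbp, Tef and Bhlhe40 genes, and the PER and CRY proteins then inhibit CLOCK and BMAL1. REV-ERBα and REV-ERBβ, encoded by Nr1d1 and Nr1d2, repress Arntl through RRE elements, and DBP and TEF act on D-boxes of output genes. In cartilage, chondrocytes are known to carry a self-sustained clock that times many matrix genes, so that in whole animals Arntl and the REV-ERB genes peak at opposite hours. In a dish, cells that are not reset drift apart in phase, and a bulk sample then averages over their phases.

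The deleted gene produces miR-34a-5p, which pairs with messenger RNAs through its seed. Its mature sequence (RefSeq, GRCm38.p6, chr4:150068473-150068494, plus strand) is shown with the seed, bases 2 to 8, in capitals, because the seed defines the sites looked for in clock transcripts.
miR-34a-5p: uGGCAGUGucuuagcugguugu
In the longest annotated 3′ UTR of each measured member (GENCODE M21), 2 of 7 held 1 match to bases 2 to 8 (CACTGCC), and no member held a match to bases 2 to 7 alone. Over all genes with a 3′ UTR of at least 20 bases, 19.3% of 9349 held such a match. The matches, in capitals, lay 369 bases into the 6831 bases of the Clock 3′ UTR (chr5:76216314-76216341, minus strand) and 23 bases into the 3182 bases of the Tef 3′ UTR (chr15:81823693-81823720, plus strand).
Clock site: agagggcacacCACTGCCaggggtttgc
Tef site: gccccgcagggCACTGCCtgcacctcag
A match is a stretch of letters and shows no binding. Of the pair, Clock had the lower mean in KO and Tef the higher mean.

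The letters through which the loop acts were searched on both strands of RefSeq promoter windows (GRCm38.p6) that span 250 bases before to 50 after a start site. Of the 7 measured members, 6 had a window. The E-box CACGTG was found in both windows of Tef, which start at different sites, and it occurs in 7.15% of all 32851 windows. The RRE core TAGGTCA was found in 1 window of Arntl, 31 bases after the start, and occurs in 2.61% of all windows. Neither the other RRE core TGGGTCA (3.98% of windows) nor the D-box TTANGTAA (2.32%) was found in a member's window. The sites are shown in capitals with 10 bases on either side, at chr7:113207531-113207557 (Arntl), chr15:81802536-81802561 and chr15:81811266-81811291 (Tef), all on the plus strand.
Arntl RRE: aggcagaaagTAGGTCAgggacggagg
Tef E-box, upstream start: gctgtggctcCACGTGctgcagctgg
Tef E-box, downstream start: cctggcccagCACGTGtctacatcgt
For the pair of members whose genotypes did not overlap, the 250 bases before a start are shown, for Clock the most upstream of 3 start sites with a window, from chr5:76304793-76305042, and Nr1d2 from chr14:18239107-18239356, both on the minus strand. They held 76.4% and 63.6% G or C. None of the 4 motifs was in these or the other Clock windows, which says only that these letters are not there.
Clock promoter: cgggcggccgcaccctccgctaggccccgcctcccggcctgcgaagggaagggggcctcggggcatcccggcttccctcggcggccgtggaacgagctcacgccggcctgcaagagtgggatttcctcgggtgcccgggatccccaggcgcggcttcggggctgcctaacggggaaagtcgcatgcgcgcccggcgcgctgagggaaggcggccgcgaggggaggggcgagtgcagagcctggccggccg
Nr1d2 promoter: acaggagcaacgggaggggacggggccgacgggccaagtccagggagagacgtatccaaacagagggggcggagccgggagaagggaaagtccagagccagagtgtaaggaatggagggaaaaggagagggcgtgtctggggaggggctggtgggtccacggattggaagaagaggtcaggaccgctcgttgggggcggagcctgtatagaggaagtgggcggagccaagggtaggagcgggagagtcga

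Values are TMM-normalized CPM, read counts that the authors scaled by an effective library size. From them 1235981 to 1991232 reads per KO library and 989217 to 5266617 reads per WT library were recovered. In WT 1, the largest library, 59.1% of reads lay on the ribosomal RNA precursor Rn45s, and without Rn45s, Lars2 and Mir6236 it held 1134384 reads. Tsix, the antisense partner of Xist, exceeded Xist in all 6 libraries, by 8.12 to 16.5 times, and Gapdh had only 47.0 to 72.9 CPM. The kit marks strand, but which strand was counted is not stated in any source read here. A row may hold reads from the strand opposite to its gene, which was not tested. Of 9816 genes with an annotated exon length, 36.2% share exon bases with a gene on the opposite strand. Of 20 listed chondrocyte markers 17 had a row, and they summed to 3893 to 7067 CPM in KO and 2559 to 3902 CPM in WT. Col2a1, the cartilage collagen gene, had at least 1159 CPM in KO and 801 CPM in WT. Without Col2a1 the chondrocyte sums were 2734 to 5083 CPM in KO and 1758 to 2636 CPM in WT, which do not overlap. The 16 listed macrophage and leukocyte markers, all measured, summed to 15167 CPM in KO 2, 1060 in KO 1 and 3516 in KO 3, against 5261 to 6242 CPM in WT. Lyz2, a lysozyme gene, made up 12165 CPM of the KO 2 sum. Without Lyz2 the sums were 3002 in KO 2, 466 in KO 1 and 1759 in KO 3, against 1612 to 2488 CPM in WT. KO 2 was the highest library for 13 of the 16 genes but not for Mrc1, a mannose receptor gene, which had 212 CPM in KO 2 and 361 to 670 CPM in WT. Mir34a has no row, so the genotype could not be checked on the deleted gene.

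Log2 fold changes compare KO with WT after adding a pseudocount of 0.5 CPM, which makes those of low genes too small, and p-values come from limma, adjusted over all 10189 genes. At an adjusted p below 0.05, 0 of the 7 members were called, against 0.00981% of all genes (1 gene, Invs, lower in KO). The quasi-likelihood test of edgeR and DESeq2, run on the recovered reads, also called 0 of 7. At an unadjusted p below 0.05, 1 of 7 was higher in KO (Nr1d2), where the share over all genes was 4.64%, and 1 of 7 lower (Clock), where it was 6.40%. All KO libraries lay above all WT libraries for 1 of 7, against 8.82% of all genes, and below them for 1 of 7, against 9.57%. With 7 genes, 1 in a direction is the smallest count above 0 and is not read as a result about the members. By their means, 4 members were higher and 3 lower in KO, and the middle log2 fold change of the 7 was 0.18, where the median over all genes was 0.02. With 3 libraries a group, a two-sided exact permutation test of a single gene cannot go below p = 0.1.

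**Figure D1:**
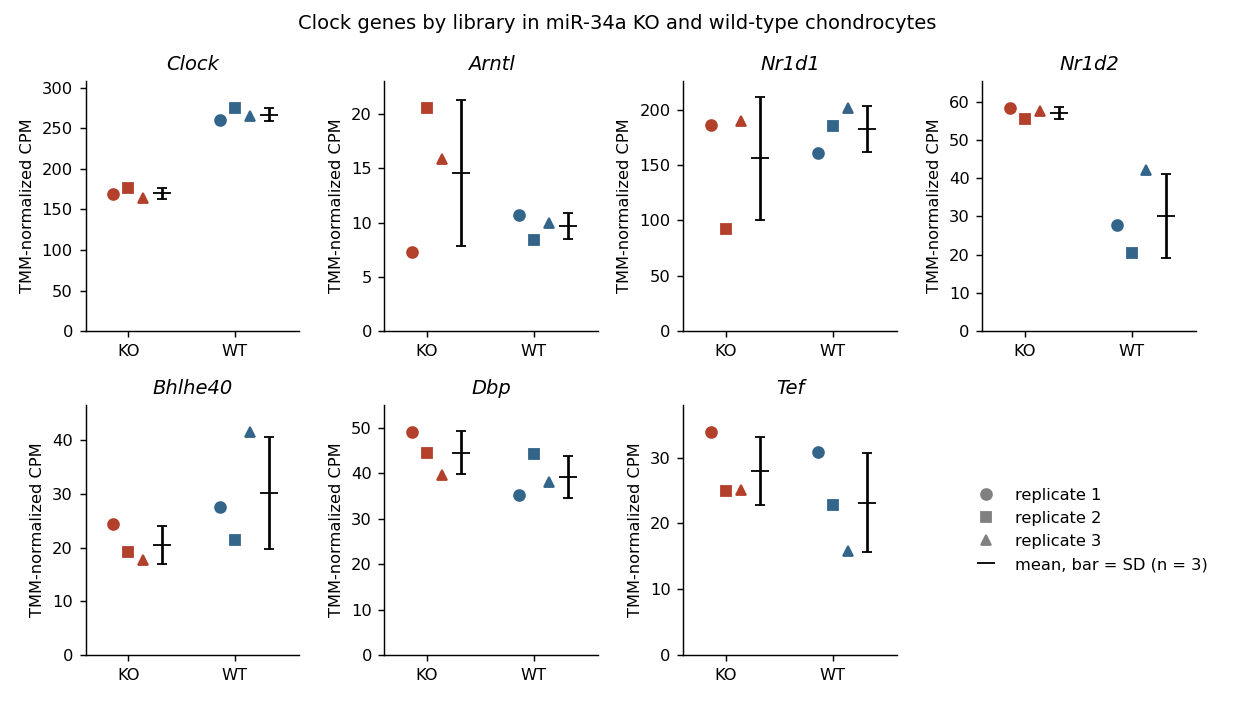
Each panel plots TMM-normalized CPM (vertical axis, from 0) of 1 clock gene in the 3 KO and 3 WT libraries, with a marker shape per replicate number and the mean ± SD beside them. Clock lies at 163.9 to 176.4 CPM in KO, below 259.5 to 275.0 CPM in WT, and Nr1d2 at 55.4 to 58.4 CPM in KO, above 20.6 to 42.2 CPM in WT.

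Clock (GeneID 12753, chromosome 5, 76209868 to 76304792, minus strand, GRCm38) encodes the histone acetyltransferase and DNA-binding partner of BMAL1. It had 168.7, 176.4 and 163.9 CPM in KO libraries 1 to 3, against 259.5, 275.0 and 264.4 CPM in WT libraries 1 to 3. All 3 KO libraries lay below all 3 WT libraries, as for 9.57% of all genes. The libraries of each genotype lay close together, with means of 169.7 ± 6.28 CPM in KO and 266.3 ± 7.95 CPM in WT (SD, n = 3 each). The log2 fold change was −0.65 (SE 0.16, 95% interval −1.02 to −0.28, limma adjusted p = 0.273). Its unadjusted limma p was 0.00295, the 108th smallest of the table, beside an exact permutation p of 0.1, the lowest this design allows. These values rest on 268 to 442 reads in KO and 361 to 451 in WT. In 17 alternative fits the log2 fold change of Clock stayed between −0.70 and −0.55, its unadjusted p was at most 0.0159, and its adjusted p ranged from 0.0635 (DESeq2) to 0.599 (without WT 2).

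No annotated gene shares exon bases with Clock on the opposite strand. The nearest measured gene there, Tmem165, looked up after the values of Clock were seen, ends 622 bases from the 3′ end of Clock and points towards it. Tmem165, which encodes a Golgi membrane protein, had 57.6, 46.5 and 68.5 CPM in KO and 74.1, 58.7 and 69.8 CPM in WT. Its values overlapped between genotypes (log2 fold change −0.24, SE 0.23, limma adjusted p = 0.694). The log2 fold change was −0.096 without KO 2 and −0.37 without KO 3. Whether Tmem165 had a part in the values of Clock was not tested. Sums of some marker lists did not overlap between the genotypes. That of the chondrocyte markers did not overlap without Col2a1, at 2734 to 5083 CPM in KO and 1758 to 2636 CPM in WT. With Col2a1 it overlapped, at 3893 to 7067 CPM in KO and 2559 to 3902 CPM in WT. Of the 17 measured markers 15 had the higher mean in KO and 2, Chad and Matn3, the lower. By themselves 6 of the 17 lay higher in all KO libraries than in all WT libraries, and 0 lower. The 20 measured proliferation genes of 21 listed summed to 1010 to 1516 CPM in KO and 1934 to 2287 CPM in WT. The 8 measured mural cell markers of 10 listed summed to 278 to 512 CPM in KO and 597 to 767 CPM in WT, or 218 to 320 and 371 to 380 CPM without the most abundant, Acta2. Among them Cspg4 had the higher values in KO, 25.5 to 58.1 CPM against 15.2 to 20.1 CPM in WT, and Pdgfrb the higher mean in KO. The 6 measured osteoblast markers of 8 listed summed to 2932 to 3914 CPM in KO and 655 to 1991 CPM in WT, and without Ibsp, which made up most of it, to 293 to 305 CPM in KO and 129 to 333 CPM in WT, which overlap. Bglap and Bglap2 were at 0 in all 3 WT libraries. In KO libraries 1 to 3 Bglap had 11.8, 7.35 and 4.89 CPM and Bglap2 had 12.2, 9.31 and 7.95 CPM, on 8 to 32 reads. These values are near the floor of the table, where the second highest value of a row was at least 7.35 CPM. Both genes have a row only through KO. Their part in the values of Clock and Nr1d2 was not tested, and in bulk RNA fewer cells of a type and less RNA per cell cannot be told apart.

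Arntl (GeneID 11865, chromosome 7, 113207465 to 113314126, plus strand) was the member with the fewest reads, 19 to 42 in KO and 11 to 17 in WT. It had 7.25, 20.6 and 15.9 CPM in KO libraries 1 to 3, against 10.7, 8.38 and 9.97 CPM in WT libraries 1 to 3. KO 2 and KO 3 lay above every WT library and KO 1 below every one. The means were 14.6 ± 6.76 CPM in KO and 9.68 ± 1.177 CPM in WT (SD, n = 3 each), and the log2 fold change of 0.46 (SE 0.48, 95% interval −0.62 to 1.53, limma adjusted p = 0.721) was within that spread. Leaving out KO 1 or KO 2 moved it to the ends of its range, 0.88 and 0.15. The gene shares 33 exon bases with the opposite-strand transcript Gm45355, which has no row.

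Nr1d2 (GeneID 353187, chromosome 14, 18204054 to 18239127, minus strand) encodes REV-ERBβ, a heme-binding nuclear receptor that lacks an activation function. It had 58.4, 55.4 and 57.5 CPM in KO libraries 1 to 3, against 27.6, 20.6 and 42.2 CPM in WT libraries 1 to 3. All KO libraries lay above all WT libraries, as for 8.82% of all genes. The KO libraries were nearly level, while the WT libraries were spread widely, with means of 57.1 ± 1.56 CPM in KO and 30.1 ± 11.04 CPM in WT (SD, n = 3 each). The log2 fold change was 0.97 (SE 0.29, 95% interval 0.32 to 1.62, limma adjusted p = 0.294). Its unadjusted limma p was 0.00788, the 273rd smallest, again beside an exact permutation p of 0.1. It ran from 0.73 without WT 2 to 1.24 without WT 3, and over 17 alternatives its unadjusted p was at most 0.0389 and its adjusted p 0.251 to 0.623. No annotated gene shares exon bases with Nr1d2 on the opposite strand.

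Nr1d1 (GeneID 217166, chromosome 11, 98767932 to 98775333, minus strand) encodes REV-ERBα, the close relative of REV-ERBβ. It had 186.2, 92.1 and 189.6 CPM in KO libraries 1 to 3, against 160.8, 185.1 and 201.7 CPM in WT libraries 1 to 3. KO 2 was the lowest of all 6 libraries and KO 1 and KO 3 lay inside the WT range. The means were 156 ± 55.4 CPM in KO and 182.6 ± 20.5 CPM in WT (SD, n = 3 each). The log2 fold change of −0.29 (SE 0.28, 95% interval −0.93 to 0.35, limma adjusted p = 0.700) was 0.048 without KO 2, so its sign rested on that library. Whether the macrophage markers of KO 2 had a part in this was not tested.

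The Nr1d1 row is uncertain for a further reason: 263 of its exon bases, 8.55% of them, overlap exons of Thra, the thyroid hormone receptor alpha gene that runs the other way. Thra had 30.2, 12.2 and 33.0 CPM in KO libraries 1 to 3, against 29.5, 19.8 and 19.9 CPM in WT libraries 1 to 3. KO 2 was the lowest library for both genes of the pair. Reads of Nr1d1 and Thra from the shared bases cannot be told apart here.

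Bhlhe40 (GeneID 20893, chromosome 6, 108660629 to 108666925, plus strand) encodes DEC1, a helix-loop-helix repressor that competes for E-boxes. It had 24.4, 19.1 and 17.7 CPM in KO libraries 1 to 3, against 27.6, 21.3 and 41.6 CPM in WT libraries 1 to 3. KO 1 lay above WT 2, so the genotypes overlapped, and WT 3 was the highest library. The log2 fold change was −0.51 (SE 0.32, 95% interval −1.24 to 0.22, limma adjusted p = 0.568), and −0.26 without WT 3. Of its exon bases 118 overlap the opposite-strand transcript 0610040F04Rik, which was also highest in WT 3, with 80.9, 56.8 and 94.8 CPM in KO and 79.2, 101.3 and 159.5 CPM in WT (log2 fold change −0.51, SE 0.30, limma adjusted p = 0.539, and −0.24 without WT 3). The 0610040F04Rik row exceeded the Bhlhe40 row in every library. Because the counted strand is unknown, either row may hold reads of the other gene, which was not tested.

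Dbp (GeneID 13170, chromosome 7, 45705088 to 45710203, plus strand) and Tef (GeneID 21685, chromosome 15, 81802421 to 81826863, plus strand) encode proline- and acidic-rich leucine zipper activators that carry the rhythm of the loop to output genes. Dbp had 49.2, 44.6 and 39.8 CPM in KO libraries 1 to 3, against 35.2, 44.2 and 38.1 CPM in WT libraries 1 to 3. Tef had 34.0, 24.99 and 25.1 CPM in KO libraries 1 to 3, against 30.8, 22.9 and 15.8 CPM in WT libraries 1 to 3. Both genes overlapped between genotypes, and KO 1 was the highest library for each.

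The log2 fold change of Dbp was 0.18 (SE 0.23, 95% interval −0.33 to 0.70, limma adjusted p = 0.766) and that of Tef was 0.30 (SE 0.32, 95% interval −0.42 to 1.03, limma adjusted p = 0.724). Without WT 3, Tef had 0.06. The 539 exon bases that Dbp shares with Sphk2, a sphingosine kinase gene on the opposite strand, are 18% of its exon bases. Sphk2 had 14.1 to 21.4 CPM in KO and 15.2 to 19.8 CPM in WT, and the pair of groups overlapped (log2 fold change 0.11, SE 0.32, limma adjusted p = 0.913). Tef shares 193 bases with Gm17597, which has no row.

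**Figure D2:**
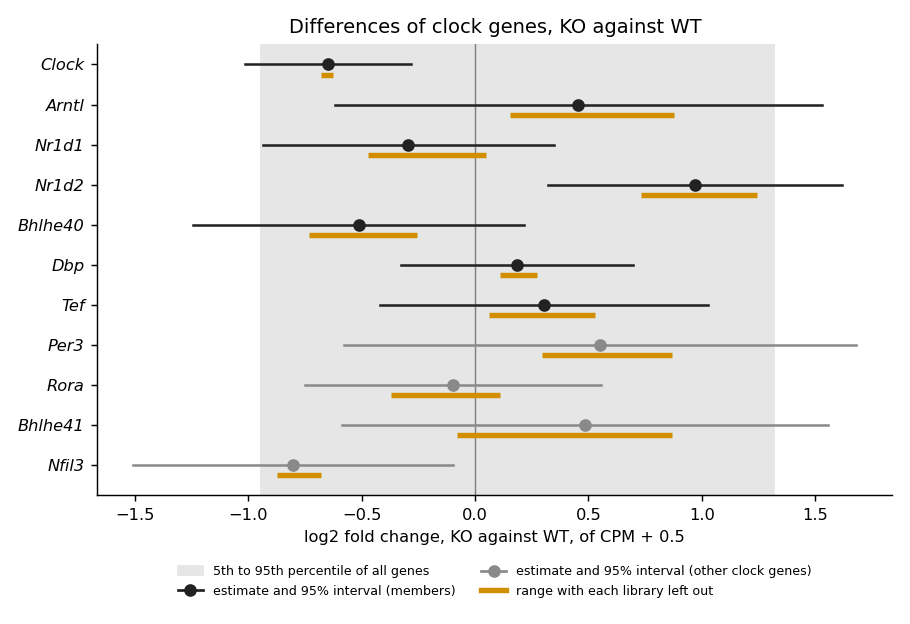
The horizontal axis is the log2 fold change of CPM + 0.5, KO against WT, for the 7 members (black) and 4 other clock genes (grey), each with its 95% interval, and an orange bar spans the estimates with each library left out. The grey band runs from −0.94 to 1.32, the 5th to 95th percentile of all genes, and holds all 11 estimates. The intervals of Clock, Nr1d2 and Nfil3 do not reach 0, and the orange bars of Nr1d1, Rora and Bhlhe41 cross it.

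Differences between members within a library do not depend on how libraries were scaled, apart from the pseudocount. On the log2(CPM + 0.5) scale, Clock lay 1.52, 1.66 and 1.503 above Nr1d2 in KO libraries 1 to 3, against 3.21, 3.71 and 2.63 in WT libraries 1 to 3. This pair was singled out after its values were seen, so the gap between the genotypes, −1.62 on average, is a description. For the REV-ERB paralogs, Nr1d2 minus Nr1d1 was −1.66, −0.73 and −1.71 in KO, against −2.52, −3.14 and −2.24 in WT, with no overlap. Nr1d2 did not overlap by itself, so this too is a description. Tef minus Dbp was −0.53, −0.82 and −0.65 in KO, against −0.19, −0.94 and −1.24 in WT, and overlapped.

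The difference between the activators varied among libraries. Whether it varied by more than counting noise was not tested. Arntl minus Clock was −4.45, −3.07 and −3.33 in KO libraries 1 to 3, against −4.54, −4.96 and −4.66 in WT libraries 1 to 3. All 3 KO libraries lay above all 3 WT libraries, KO 1 by less than 0.1 over WT 1, on the few reads of Arntl. Clock did not overlap by itself, so this is a description. Arntl minus Nr1d1, a gene and its repressor, was −4.59, −2.14 and −3.53 in KO, against −3.85, −4.39 and −4.27 in WT. KO 2, which had the highest Arntl and the lowest Nr1d1 of all libraries, had the largest value, and KO 1 the smallest of the 6. The KO libraries thus spread over a wider range than the WT libraries on both sides of WT for this pair.

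**Figure D3:**
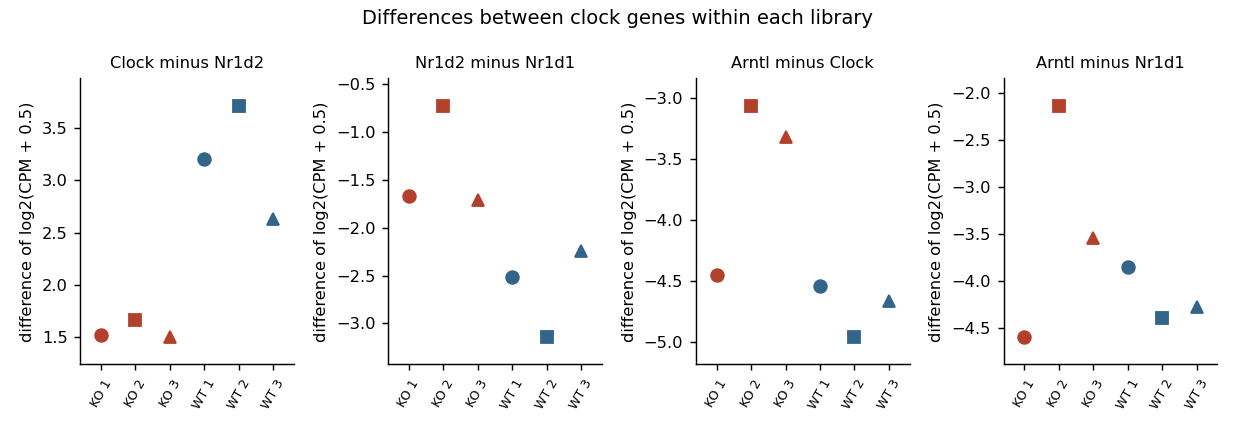
Each panel plots the difference of log2(CPM + 0.5) between 2 clock genes (vertical axis) in each KO (red) and WT (blue) library. Clock minus Nr1d2 is 1.503 to 1.66 in KO and 2.63 to 3.71 in WT, while Arntl minus Nr1d1 is −4.59 to −2.14 in KO and −4.39 to −3.85 in WT.

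To compare genes, CPM was divided by the length of merged annotated exons, which counts retained introns and so lowers genes with many isoforms. The strand counted is not stated, so a row may hold opposite-strand reads, and the order given here is one of rows. Exon bases shared with opposite-strand genes were 8.55% for Nr1d1 and 18% for Dbp. The Nr1d1 row was the highest of the members, at 50.7 ± 18.0 CPM per kb in KO and 59.3 ± 6.68 CPM per kb in WT (SD, n = 3 each). It lay above 93.5% of all genes by its mean. Clock followed with 12.4 ± 0.46 in KO and 19.4 ± 0.58 CPM per kb in WT, and Dbp with 14.9 ± 1.58 in KO and 13.1 ± 1.53 CPM per kb in WT. Nr1d1 stood above both in every library. Dbp exceeded Clock in each KO library, and Clock exceeded Dbp in each WT library.

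Below them came Nr1d2, at 10.6 ± 0.29 CPM per kb in KO and 5.57 ± 2.04 in WT, and Bhlhe40, at 4.34 ± 0.75 in KO and 6.42 ± 2.21 CPM per kb in WT. Tef had 3.56 ± 0.66 in KO and 2.94 ± 0.95 CPM per kb in WT. Arntl was the lowest member, at 1.94 ± 0.90 in KO and 1.29 ± 0.16 CPM per kb in WT, with 9.9% of genes below it. Over all 6 libraries the neighbouring pairs Clock and Dbp, Nr1d2 and Bhlhe40, Bhlhe40 and Tef, and Tef and Arntl overlapped in level, whereas Nr1d1 and Clock, and Dbp and Nr1d2, did not. The median of all genes was 6.08 CPM per kb.

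**Figure D4:**
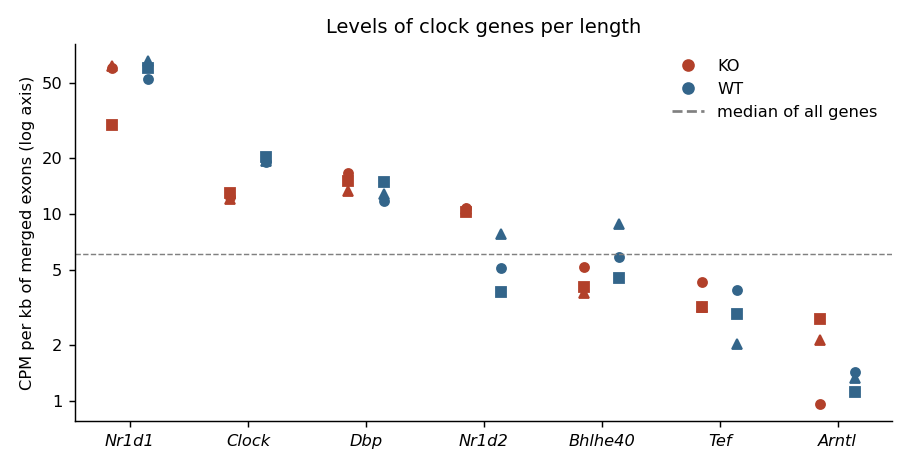
CPM per kb of merged exons (vertical log axis) is plotted for the 7 members in order of their mean, with KO libraries in red left of WT libraries in blue and marker shapes for the replicate numbers as in the plot of members by library. Nr1d1 lies at 29.9 to 65.5 and Arntl at 0.96 to 2.74, with the dashed line at the median of all genes, 6.08.

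Other transcription factors of the loop with a row were Per3, Rora, Bhlhe41 and Nfil3, 4 of 11 listed, and limma called 0 of them over all genes, as did edgeR and DESeq2. At an unadjusted p below 0.05, 0 of 4 were higher and 1 of 4 lower, against 4.64% and 6.40% of all genes. That gene, Nfil3, encodes a leucine zipper repressor that binds the same D-boxes as DBP and TEF. It had 10.7, 13.7 and 14.1 CPM in KO libraries 1 to 3, against 24.5, 22.9 and 20.5 CPM in WT libraries 1 to 3. All KO libraries lay below all WT libraries, as for 9.57% of all genes (log2 fold change −0.80, SE 0.31, limma adjusted p = 0.397), on 23 to 28 reads in KO and 30 to 39 in WT, and the unadjusted p was below 0.05 in 11 of 17 alternatives.

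Per3, the third Period gene, had 14.1, 15.2 and 7.34 CPM in KO libraries 1 to 3, against 9.42, 5.33 and 9.38 CPM in WT (log2 fold change 0.55, SE 0.50, limma adjusted p = 0.678), and its log2 fold change was 0.87 without KO 3 and 0.30 without WT 2. Rora encodes RORα, the activator that competes with the REV-ERBs for RREs, and had 72.1, 36.7 and 44.7 CPM in KO against 49.6, 45.7 and 63.9 CPM in WT. Bhlhe41, which encodes the DEC2 repressor, had 20.2, 76.4 and 26.9 CPM in KO libraries 1 to 3, against 35.2, 21.3 and 19.9 CPM in WT. Of the exon bases of Bhlhe41, 19% are shared with an opposite-strand transcript that has no row. KO 2, the library with the highest sum of macrophage markers, most of it Lyz2, was the highest for Bhlhe41 and the lowest for Rora. Without KO 2 the log2 fold changes of both turned sign. That of Bhlhe41 turned to −0.078, against 0.49 with all libraries, and that of Rora to 0.11, against −0.10. The sign of Rora also turned without WT 3, to 0.044. Whether the macrophage markers had a part in these values was not tested.

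Genes that act on clock proteins came next. Of 29 listed kinases, ubiquitin ligases and cofactors 26 had a row, and limma called 0 over all genes. At an unadjusted p below 0.05, 0 of 26 were higher and 1 of 26 lower (Csnk2b), against 4.64% and 6.40% of all genes, and their median log2 fold change was 0.11, against 0.02 over all genes. Csnk2b, the regulatory subunit gene of casein kinase 2, had 26.2 ± 6.94 CPM in KO and 39.9 ± 4.24 CPM in WT (log2 fold change −0.63, SE 0.28, limma adjusted p = 0.450), and its unadjusted p was below 0.05 in 6 of 17 alternatives. All KO libraries lay above all WT libraries for 1 of the 26 (Ddb1) and below them for 3 (Csnk1d, Csnk2b and Ncor1), against 8.82% and 9.57% of all genes. Csnk1d, which encodes the casein kinase 1 delta that phosphorylates PER proteins, was named after its values were seen. It had 53.8, 59.3 and 62.4 CPM in KO and 93.0, 67.8 and 80.9 CPM in WT (log2 fold change −0.45, SE 0.21, limma adjusted p = 0.467).

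Output genes of the clock were listed from many mouse tissues. All 10 of them had a row, 0 were called by limma over all genes, and 0 were higher or lower at an unadjusted p below 0.05, with a median log2 fold change of 0.13. Named after their values were seen, all KO libraries lay above WT for 2 of the 10, Wee1, a kinase gene that delays mitosis, and Tspan4, a tetraspanin gene, and below WT for 1, Ccrn4l, the gene of the deadenylase-like protein nocturnin. Of all genes, 8.82% lay above and 9.57% below in this way. Ccrn4l had 24.4, 26.5 and 29.4 CPM in KO and 32.7, 42.7 and 37.5 CPM in WT (log2 fold change −0.48, SE 0.25, limma adjusted p = 0.496).

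Glucocorticoids and serum are known to reset clocks of cultured cells. Of 7 listed glucocorticoid-responsive genes 6 had a row, and at an unadjusted p below 0.05 0 were higher and 1 lower (against 4.64% and 6.40% of all genes), Errfi1, which encodes an inhibitor of the EGF receptor. It had 77.7 ± 22.4 CPM in KO and 121 ± 29.4 CPM in WT (log2 fold change −0.65, SE 0.28, limma adjusted p = 0.435), and the genotypes overlapped. Its unadjusted p was below 0.05 in 8 of 17 alternatives, and not with the replicate block. The 6 genes had a median of 0.07. Of 15 listed immediate early genes 10 had a row, 0 were higher or lower at an unadjusted p below 0.05, and their median was 0.18. All KO libraries lay above all WT libraries for 0 of the 10 and below them for 1, against 8.82% and 9.57% of all genes. That gene, Jun, was named after its values were seen and had 21.4 to 34.8 CPM in KO and 38.1 to 62.5 CPM in WT. Limma called 0 genes of either list over all genes.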

How the data were processed

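The deposited table holds a signal per gene and library, read counts that the authors scaled to TMM-normalized CPM and filtered, per its name. The submitters' processing notes name cutadapt 1.18, HISAT2 2.1.0, StringTie 1.3.5, edgeR and the build mm10, without roles. All 100% of values were whole multiples of 1 step per library (tolerance 0.001), so whole reads were recovered. In every row the second highest value was at least 7.35 CPM. No column was left unmapped (0), and the column of KO 3 differs from its title by 1 letter.

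A limma 3.58.1 model (R 4.3.3) with a mean-variance trend was fitted to log2(CPM + 0.5) of all genes, with Benjamini-Hochberg adjustment. EdgeR 4.0.16 and DESeq2 1.42.0 tested recovered reads. The signal is not plain CPM, which the fixed design had assumed, and the same test was used. Gene models came from GENCODE M21 (96.3% of symbols matched). The procedure was also run on simulated counts, and the outcome of that run is not given here. Chi-square per degree of freedom between libraries of 1 genotype was at least 10.5, so none were repeat sequencing of the same library. This value cannot tell separate animals from separate preparations of 1 sample. Members, lists and tests were chosen with earlier results of these data known. Named genes were all members, measured genes of the core clock list, up to 4 genes per other list with an unadjusted p below 0.05, and opposite-strand partners of members. Outside this rule and named after their values were seen were Tmem165, Csnk1d, Ddb1, Ncor1, Wee1, Tspan4, Ccrn4l, Jun, the library checks (Tsix, Xist, Gapdh, Rn45s, Lars2, Mir6236, Invs) and the marker genes.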

Additional observations from a re-analysis of the deposited data

How the results depend on the processing

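Over 17 alternatives, 0 clock members were called in either direction with limma, edgeR or DESeq2, and Clock and Nr1d2 kept their direction and an unadjusted p below 0.05 in each. Alternatives were pseudocounts, a filter at 10 CPM, scalings, limma settings, tests of reads, a replicate block, leaving out each library, and leaving out KO 2 and WT 1 together, which was added after the data were seen. Deviations of libraries with the same replicate number in their titles correlated at 0.02, 0.07 and −0.06. Libraries with different numbers had −0.10 to 0.09. These values show no pairing by number, but with 3 libraries a group they cannot exclude one. With the replicate block, limma called 0 genes lower, against 1, and the adjusted p was 0.332 for Clock and 0.341 for Nr1d2.

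Over all genes, the count called higher was 0 with limma, 7 without a trend, 1 with robust empirical Bayes, 42 with DESeq2 and 0 to 7 with a library left out (7 without KO 2). The count called lower was 2 with pseudocount 2, 3 without a trend, 3 with robust empirical Bayes, 2 with edgeR, 73 with DESeq2, 2 without KO 2 and WT 1, and 0 to 25 with a library left out (25 without KO 2, 0 without WT 1). The count lower at an unadjusted p below 0.05 was 384 to 795 with a library left out, with 384 without WT 2 and 401 without WT 3.

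Signs turned for 4 genes that were never called. With a library left out, log2 fold changes ran from −0.47 to 0.048 for Nr1d1, −0.37 to 0.11 for Rora, −0.078 to 0.87 for Bhlhe41 and −0.23 to 0.47 for Thra. Rora was 0.044 without WT 3 and 0.070 without KO 2 and WT 1, and Thra was −0.0022 with quantile normalization. The cause was not tested. Depth limits Arntl (11 to 42 reads), Per3 (7 to 37) and Nfil3 (23 to 39) most.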
